A study of Mus musculus with 10 samples.

Results

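Death receptor signalling genes were examined in CD8+ cDC1 with and without Ppef2. The set holds 10 genes chosen by symbol: the receptors Fas, Tnfrsf1a and Tnfrsf1b, the adaptors Fadd, Tradd and Traf2, the kinases Ripk1 and Ripk3, and the inhibitors Cflar and Birc2. All 10 were among the 10767 genes of the normalized RNA-seq table. CD8+ cDC1 are the conventional dendritic cells of the spleen that present antigen from dead cells to CD8+ T cells, and Ppef2 encodes a phosphatase with calcium-binding EF-hands. Cells were sorted from spleen as CD11c+MHCII+CD8+CD11b- in 5 independent sorts. Each sort gave 1 Ppef2+/+ and 1 Ppef2-/- library, and each library came from 3 pooled mice. The mice were untreated, matched for sex and age, and 8 to 13 weeks old. Ppef2-/- mice came from JM8A3.N1 embryonic stem cells injected into C57BL/6 oocytes and were crossed with C57BL/6. They carry a knockout-first allele, in which a trap cassette sits between the fourth and the fifth exon of Ppef2 in all cells and not only in dendritic cells.

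Death receptors are members of the TNF receptor family that carry a death domain in their cytoplasmic tail. Fas binds FADD directly, and FADD recruits caspase-8, which starts apoptosis unless FLIP, the product of Cflar, takes its place. TNFR1, the product of Tnfrsf1a, first binds TRADD and RIPK1, and these bring in TRAF2 and cIAP1, the product of Birc2, to drive NF-κB signalling and survival. Where caspase-8 is blocked, RIPK1 and RIPK3 can join to start necroptosis. TNFR2, the product of Tnfrsf1b, has no death domain and signals through TRAF2. The comparison addresses whether transcripts of this machinery differed in dendritic cells that lack Ppef2, a gene the study links to dendritic cell survival.

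The values were normalized counts, that is, read counts scaled for library size by the authors. The mean of each sort had been taken out of them, so that the sum of both libraries of a sort was the same in all 5 sorts for 10721 of 10721 genes with no value at the floor of 1, to a relative tolerance of 6.28e-06. For these genes, differences in normalized counts within a sort were intact. Ratios within a sort were changed, and the spread between sorts was missing. Whole reads were therefore calculated back for 9613 genes, all 10 members included. Levels and ratios within sorts given below are based on reads times the value of 1 read, with the sort mean put back, unless said otherwise. Fitted log2 changes and their p-values come from the deposited values unless another fit is named. Libraries held between 1395127 and 4406129 reads in these genes. The Ppef2-/- library was deeper than its Ppef2+/+ partner in sorts 1, 2 and 3, by 2.95, 2.31 and 1.60 times, and shallower in sorts 4 and 5, at 0.875 and 0.727 times. Reads of Ppef2 itself numbered 95 to 228 per Ppef2+/+ library against 0 to 8 per Ppef2-/- library. It was the only gene called in the main test (adjusted p = 0.000121, limma with a block for the sort), and this call was lost in limma without a trend in mean expression (adjusted p = 0.865). All 12 cDC1 markers on the list were in the table and none of them had an unadjusted p under 0.05, and 0 of 6 T cell markers and 0 of 4 NK cell markers were listed. Other lists were in the table in part, with 6 of 7 cDC2, 2 of 5 B cell and 1 of 3 neutrophil markers. The 7 macrophage and monocyte markers and the 4 erythroid markers were all in the table. Of these lists, 1 macrophage and monocyte marker was lower and 1 erythroid marker was higher in Ppef2-/- cells at an unadjusted p under 0.05. Median log2 changes were 0.36 for erythroid, 0.075 for macrophage and monocyte, 0.064 for B cell and −0.019 for cDC2 markers. The 1 neutrophil marker, with a value at the floor of 1, had −1.03. Of 5 plasmacytoid dendritic cell markers, 2 had an unadjusted p under 0.05, both lower in Ppef2-/- cells. The mean of another marker on this list was higher in Ppef2-/- cells, at 243 compared to 239 normalized counts. As deposited, the summed level of the list was 1079 to 1205 normalized counts in Ppef2+/+ libraries compared to 933 to 1059 in Ppef2-/- libraries. With the sort means removed, these 2 ranges mirror each other, so they do not show whether the libraries overlapped. Whether these markers touch the genes described below was not tested.

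No difference between genotypes was detected for any of the 10 genes. In limma's test on log2(normalized count + 1) with the sort as a block, 0 of 10 passed an adjusted p of 0.05 and 0 of 10 had an unadjusted p under 0.05. Over all 10767 genes, 0.00929% passed the adjusted threshold and 4.29% the unadjusted one. The fit without the block gave 0 of 10 members at an unadjusted p under 0.05 beside 17.5% of all genes, and limma's voom on whole reads gave 0 of 10 beside 4.58%. Unadjusted p-values of the members lay between 0.311 for Ripk3 and 0.947 for Tradd, and the smallest adjusted p was 0.995. Fitted log2 fold changes, Ppef2-/- minus Ppef2+/+, ran from −0.11 for Fadd and Fas to 0.10 for Ripk3, with 5 above and 5 below 0. Their median was −0.0024, compared to 0.00089 over all genes. In bulk RNA from sorted cells, fewer cells that express a gene and less RNA per cell cannot be told apart.

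The intervals say how large a change could have been missed. Over the 10 genes, the 95% intervals of the log2 fold change reached from −0.52 at the lowest, for Fas, to 0.30 at the highest, also for Fas. As a ratio of Ppef2-/- to Ppef2+/+ this is 0.696 to 1.23. The tightest intervals belonged to Ripk1, with ratios of 0.882 to 1.06, and Tnfrsf1a, with ratios of 0.903 to 1.09. Larger changes than these in the average of the 5 sorts are outside the intervals, and smaller ones cannot be told from 0 with 5 sorts. The intervals use limma's variance, which is drawn toward that of other genes of similar level. They are therefore not the spread of each gene over its 5 sorts alone. Fas and Fadd, with the widest intervals, were also the genes with the fewest reads, at 32 to 75 and 37 to 157 per library.

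**Figure D1:**
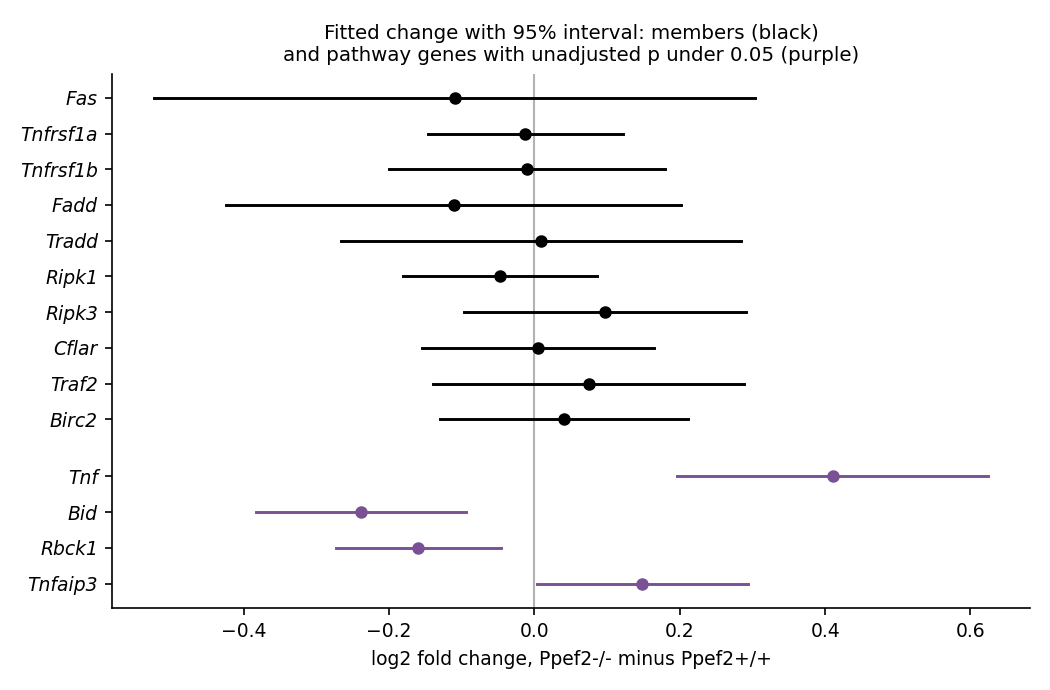
Fitted log2 fold change (Ppef2-/- minus Ppef2+/+, x axis) of the 10 members in black and of the 4 other pathway genes with an unadjusted p under 0.05 in purple, as points with 95% intervals from the blocked limma fit. The intervals of all 10 members include 0 and stay between −0.52 and 0.30.

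Levels between genes were compared per kilobase of exon, using the merged exons of RefSeq-matched GENCODE M21 transcripts. In Ppef2+/+ cells, Tnfrsf1a was the most abundant member at 286 ± 72.8 normalized counts per kb (SD, n = 5), higher than 88.6% of genes. Fadd was the least abundant at 18.1 ± 2.61, with 21.5% of genes below it, and the ratio of the highest to the lowest was 15.8. Fas stood next to Fadd at 24.3 ± 4.28, so a death receptor and the adaptor it binds were the 2 lowest of the set. The remaining 7 genes, from Birc2 at 129 ± 11.8 down to Traf2 at 58.9 ± 7.88, were above the median gene, which had 56.2 normalized counts per kb.

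Between these 7, neighbours in the order had overlapping ranges over libraries. Overlap of ranges does not show whether a gene was above its neighbour within each library. Apart from Ripk3 and Ripk1, whose ratio within libraries is given below, neighbours, Fas and Fadd included, were not compared within a library. In Ppef2+/+ cells the range of Birc2 overlapped that of Tnfrsf1b (109 ± 18.6), and the same held for each following pair of Tnfrsf1b, Ripk3 (96.9 ± 9.78), Ripk1 (89.1 ± 5.27), Cflar (79.1 ± 10.8), Tradd (62.4 ± 14.0) and Traf2. Between genes further apart part of the order held in every library, as for Birc2, whose lowest value of 114 was above the highest of Ripk3 at 107 and above all values of Ripk1, Cflar, Tradd and Traf2. Of the steps between neighbours, those from Tnfrsf1a to Birc2 and from Traf2 to Fas had no overlap between libraries, and Fas and Fadd again overlapped. The order of the means was the same in Ppef2-/- cells for all 10 genes. Exon lengths depend on which transcripts a cell uses, which the table does not show.

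**Figure D2:**
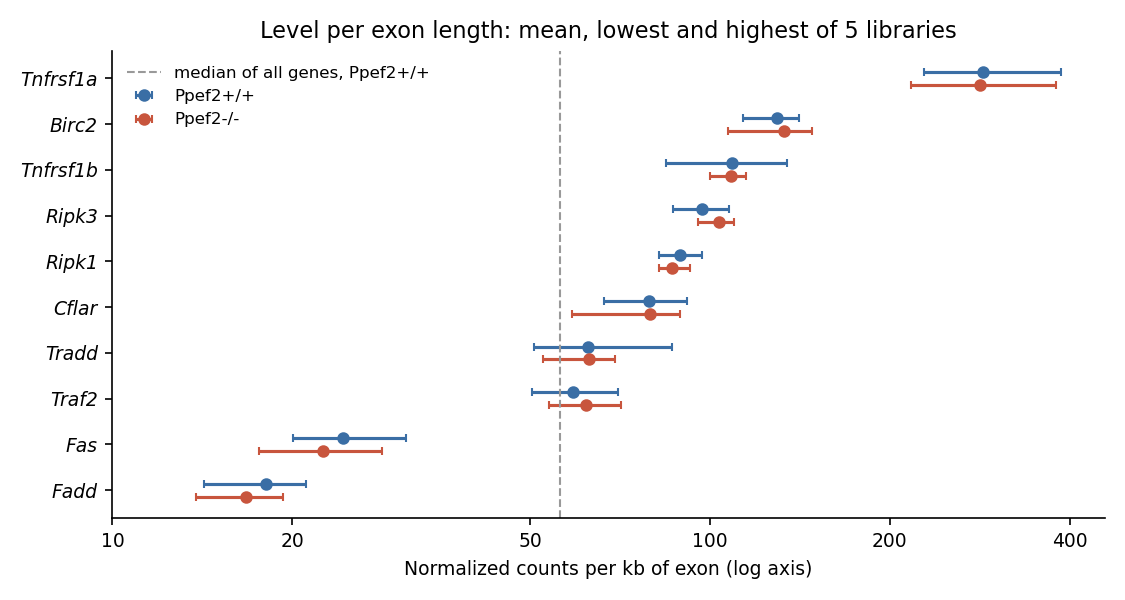
Normalized counts per kb of exon (x axis, log scale) for the 10 genes in Ppef2+/+ (blue) and Ppef2-/- (red) libraries, with points for the mean and bars from the lowest to the highest of 5 libraries. Tnfrsf1a stands alone at the top and Fas and Fadd lie below the median of all genes (dashed line, 56.2).

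Of the receptors, Fas was annotated on chromosome 19 from 34290666 to 34327772, plus strand, in GRCm38 (the assembly also called mm10). Its level in sorts 1 to 5 was 43.8, 45.0, 55.6, 36.0 and 37.8 normalized counts in Ppef2+/+ libraries and 31.6, 44.3, 36.5, 39.1 and 50.7 in Ppef2-/- libraries. Ppef2-/- libraries were lower in sorts 1 to 3 and higher in sorts 4 and 5, and the genotypes overlapped over most of their range. The means were 43.7 ± 7.69 and 40.4 ± 7.33 (SD, n = 5), a fitted log2 change of −0.11 with a standard error of 0.20 (adjusted p = 0.995, limma). With 32 to 75 reads per library, none of the 5 within-sort ratios had a counting interval that left out 1.

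Tnfrsf1a, on the plus strand of chromosome 6 from 125349362 to 125362484, encodes TNFR1, the receptor for TNF with a death domain. It had 517, 507, 732, 835 and 492 normalized counts in Ppef2+/+ libraries and 468, 548, 667, 817 and 557 in Ppef2-/- libraries of sorts 1 to 5. Both genotypes were high in sorts 3 and 4 and low in the other three. The mean of both libraries was 1.68 times higher in sort 4 than in sort 1, a ratio between sorts larger than that of 92.7% of the 7803 genes with a mean level of at least 40, whose median was 1.24. Beside this, the genotypes stayed close, at 617 ± 157 and 612 ± 135 (SD, n = 5), with a fitted log2 change of −0.012 ± 0.064 (SE). The deposited table does not show this variation, since the sort means had been taken out.

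Tnfrsf1b, on the minus strand of chromosome 4 from 145213463 to 145246870, encodes TNFR2. Its level was 513, 322, 421, 444 and 382 normalized counts in Ppef2+/+ libraries and 381, 418, 438, 395 and 435 in Ppef2-/- libraries of sorts 1 to 5. Its spread over the Ppef2+/+ libraries was wider than over the Ppef2-/- libraries, with a coefficient of variation of 17.1% compared to 6.04%, and the Ppef2-/- values lay inside the range of the Ppef2+/+ values. The direction of the difference turned between sorts. In sort 1 the Ppef2-/- library was at 0.743 of its partner, with an exact counting interval of 0.657 to 0.841, and in sort 2 it was at 1.30, with an interval of 1.12 to 1.51. These cancelled in the fit, which gave a log2 change of −0.010 ± 0.091 (SE). Per kb and within a library, Tnfrsf1a exceeded Tnfrsf1b by 1.79 to 3.34 times in Ppef2+/+ cells and by 2.17 to 3.66 times in Ppef2-/- cells, so the receptor with the death domain was the more abundant transcript in 10 of 10 libraries.

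The adaptor Fadd, which links Fas to caspase-8, lies on the minus strand of chromosome 7 from 144577318 to 144582463 and ranged from 55.6 to 82.1 normalized counts in Ppef2+/+ libraries and from 53.8 to 75.3 in Ppef2-/- libraries. It was lower in Ppef2-/- cells in sorts 1, 2 and 4 and higher in sorts 3 and 5, and none of these ratios had a counting interval that left out 1. Its fitted log2 change of −0.11 ± 0.15 (SE) was smaller than its error. The annotation places Faddos on the opposite strand over 239 bases of Fadd exons. The library kit as named in the labels is not described as marking strand, so reads from this stretch cannot be assigned to either gene with certainty.

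Tradd, which links TNFR1 to RIPK1 and TRAF2, lies on the minus strand of chromosome 8 from 105258286 to 105264609. Its level was 101, 146, 85.7, 91.5 and 103 normalized counts in Ppef2+/+ libraries and 109, 112, 117, 88.8 and 104 in Ppef2-/- libraries of sorts 1 to 5. The Ppef2+/+ library of sort 2 was above the 9 others. In that sort the Ppef2-/- library was at 0.766 of its partner (counting interval 0.601 to 0.980), while in sort 3 it was at 1.37 (0.991 to 1.90). The genotype means differed by less than 1 normalized count, at 105 ± 23.7 and 106 ± 10.8 (SD, n = 5).

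Traf2, a ring-finger adaptor of both TNF receptors, lies on the minus strand of chromosome 2 from 25517982 to 25546940. It ranged from 154 to 215 normalized counts in Ppef2+/+ libraries and from 165 to 218 in Ppef2-/- libraries, which overlapped nearly throughout. Ppef2-/- libraries were higher in sorts 2, 4 and 5 and lower in sorts 1 and 3. In sort 4 the ratio of 1.25 had a counting interval of 1.00 to 1.55, just above 1. The fitted log2 change was 0.075 ± 0.10 (SE).

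**Figure D3:**
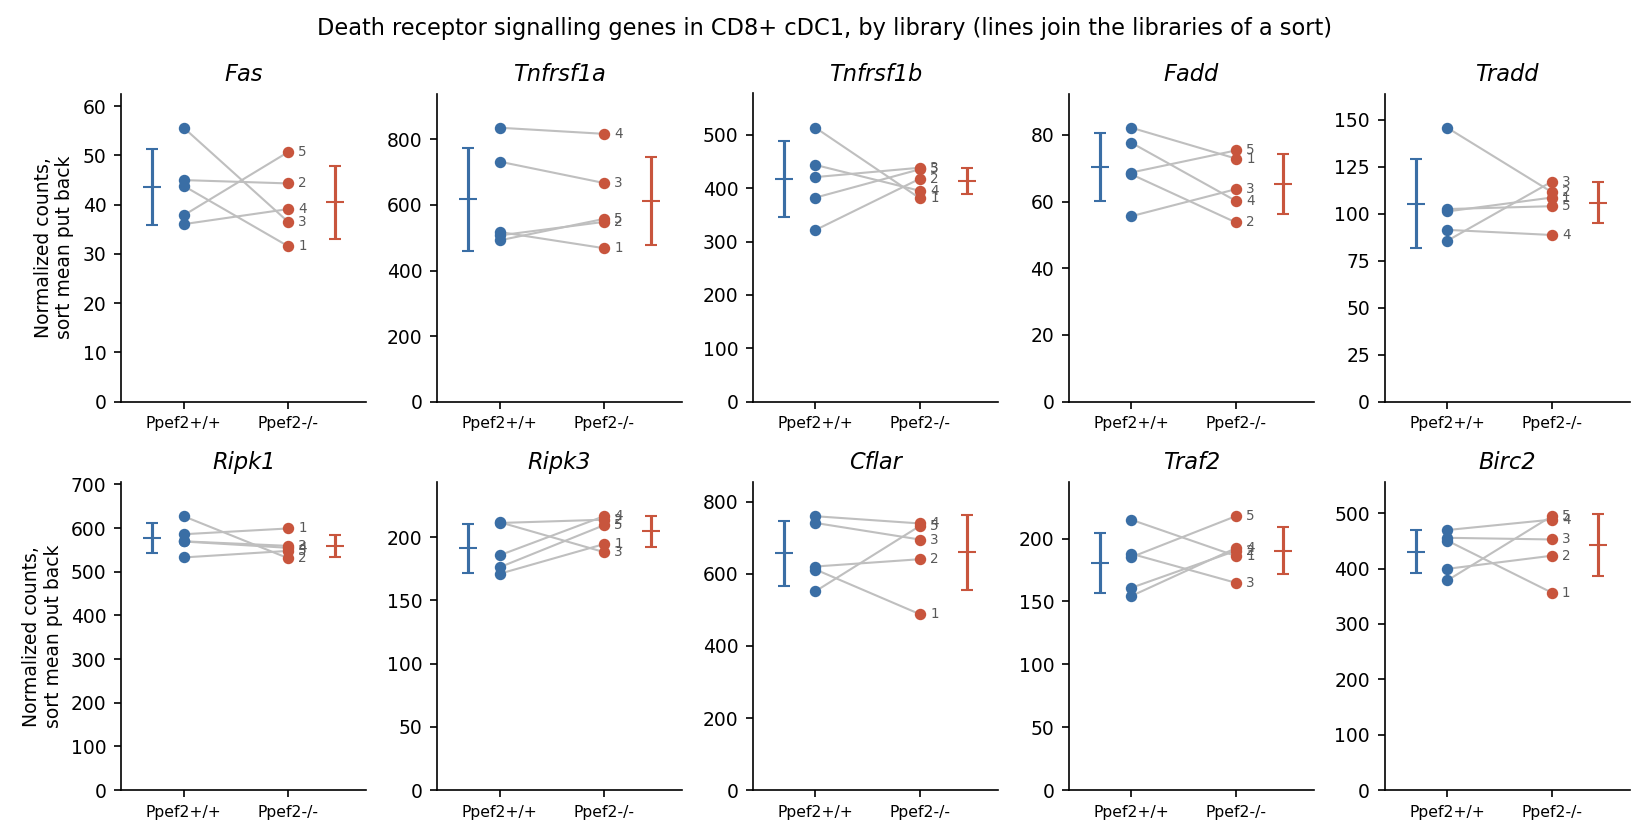
Level of each gene in normalized counts with the sort mean put back (y axis, from 0) in Ppef2+/+ (blue) and Ppef2-/- (red) libraries, where lines join both libraries of a sort, digits give the sort, and the bars beside the points are the mean ± SD of 5 libraries. The genotypes overlap in all 10 panels, and Tnfrsf1a is high in both genotypes in sorts 3 and 4.

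Ripk1, the kinase at the branch between survival and death below TNFR1, was the steadiest member between sorts. The gene, on the plus strand of chromosome 13 from 34002363 to 34037147, had levels of 586, 627, 570, 569 and 533 normalized counts in Ppef2+/+ libraries and 599, 531, 559, 555 and 548 in Ppef2-/- libraries of sorts 1 to 5. All 10 values lay between 531 and 627. Its coefficient of variation over sorts was 5.91% in Ppef2+/+ and 4.50% in Ppef2-/- cells. The ratio between the highest and the lowest sort was 1.10 for Ripk1. Of the 7803 genes with a mean level of at least 40, 7.59% had a smaller ratio. These genes were not matched for reads, of which Ripk1 had 379 to 1290 per library. In sort 2 the Ppef2-/- library was at 0.847 of its partner (counting interval 0.756 to 0.950), and in the other 4 sorts the ratio lay between 0.975 and 1.03. The fitted log2 change was −0.047 ± 0.064 (SE). Another gene model, Gm17084, overlaps 511 bases of Ripk1 exons on the same strand, and its reads cannot be told apart from those of Ripk1 there.

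Ripk3, on the minus strand of chromosome 14 from 55784995 to 55788865, is the kinase of necroptosis. It had 171, 211, 212, 186 and 176 normalized counts in Ppef2+/+ libraries and 195, 214, 188, 217 and 210 in Ppef2-/- libraries of sorts 1 to 5. It was higher in Ppef2-/- cells in 4 of 5 sorts, and sort 3 went the other way. Of all genes, 31.1% had the same sign in 4 of 5 sorts. The means were 191 ± 19.3 and 205 ± 12.5 (SD, n = 5), and the fitted log2 change of 0.097 ± 0.093 (SE) had the smallest p of the set, at an unadjusted p of 0.311 (limma). An exact permutation test that exchanged genotypes within sorts gave p = 0.25, where 0.0625 is the smallest it can give with 5 sorts. Per kb, the ratio of Ripk1 to Ripk3 was 0.819 to 1.04 in Ppef2+/+ and 0.757 to 0.939 in Ppef2-/- libraries, ranges that overlapped.

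For the inhibitors Cflar and Birc2, the Ppef2-/- library was below its partner in sort 1 and above it in sort 5, each time by more than the counting error. Cflar, on the plus strand of chromosome 1 from 58711508 to 58758884, had 612, 620, 741, 760 and 552 normalized counts in Ppef2+/+ libraries and 488, 640, 695, 740 and 733 in Ppef2-/- libraries of sorts 1 to 5. In sort 1 the Ppef2-/- library was at 0.798 of its partner (counting interval 0.713 to 0.893), and in sort 5 it was at 1.33 (1.18 to 1.50). The 3 sorts between had ratios of 0.938 to 1.03 with intervals that included 1. The means of 657 ± 89.5 and 659 ± 103 (SD, n = 5) were nearly equal, and the fitted log2 change was 0.0053 ± 0.076 (SE).

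Birc2, on the minus strand of chromosome 9 from 7818227 to 7837064, followed the same course. Its level was 450, 399, 455, 469 and 378 normalized counts in Ppef2+/+ libraries and 357, 423, 452, 488 and 494 in Ppef2-/- libraries of sorts 1 to 5. The ratio was 0.792 in sort 1 (counting interval 0.695 to 0.904) and 1.31 in sort 5 (1.13 to 1.51), and 0.993 to 1.06 in the sorts between. The highest and the lowest of the 10 values both belonged to Ppef2-/- libraries. The fitted log2 change was 0.041 ± 0.082 (SE). Among the 7803 genes with a mean level of at least 40, 1.95% had an interval below 1 in sort 1 and above 1 in sort 5, as these 2 genes did. The width of an interval depends on the reads, and this share was not matched for them. Cflar and Birc2 had 293 to 1084 reads per library. These 2 genes were noticed after their values were seen.

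Taken by sort, 0 of 10 members had the same sign in all 5 sorts, beside 6.18% of all genes. Ripk3 had the same sign in 4 sorts and the other 9 in 3, beside 31.1% and 62.6% of all genes. Of the 50 within-sort ratios, 5 had a counting interval below 1, 4 had one above 1 and 41 included 1, and over the genes with a mean level of at least 40, 19.3% of ratios had an interval that left out 1. Tnfrsf1b, Cflar and Birc2 had an interval below 1 in one sort and above 1 in another, as did 14.9% of those genes. Neither share was matched for the number of reads. Counting intervals cover the sampling of reads only, and a ratio within a sort compares 2 libraries and not the genotypes.

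In sort 5, Ppef2-/- levels were higher for 10 of 10 members, with a median log2 ratio of 0.21, beside 50.2% of all genes, and 2 of the 10 counting intervals lay above 1. In sort 1 they were lower for 7 of 10 and higher for 3, with a median of −0.19, beside 50.4% of all genes lower, and 3 intervals lay below 1. Sorts 2, 3 and 4 had 4, 7 and 6 members lower, with medians of 0.032, −0.060 and −0.035, beside 51.0%, 49.7% and 47.7% of all genes lower. Over the 9582 genes with reads in all libraries, the median log2 ratio was between −0.0074 and 0.0097 in every sort. Members measured in the same 2 libraries are not independent, so a count over them in 1 sort is a description. The relative depth of the 2 libraries also differed most between these sorts, from 2.95 in sort 1 to 0.727 in sort 5, and its part in the pattern was not tested.

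**Figure D4:**
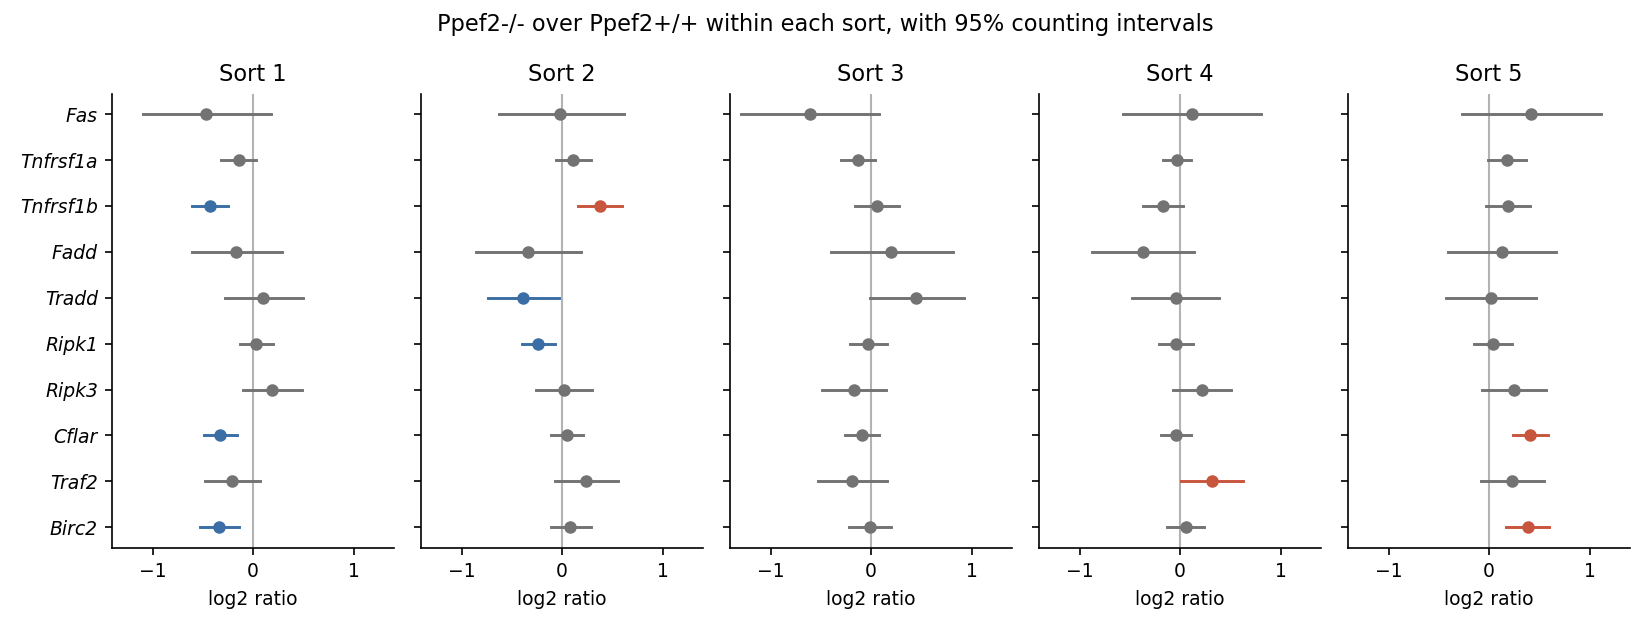
Ratio of Ppef2-/- to Ppef2+/+ on a log2 scale (x axis) for each gene within each of the 5 sorts, as points with exact 95% counting intervals, blue where the interval lies below a ratio of 1, red above and grey where it includes 1. Intervals below 1 appear for 3 genes in sort 1 and 2 in sort 2, and in sort 5 all 10 points lie above 0.

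Of 40 other genes of the pathway on a list of ligands, receptors, ubiquitin ligases, kinases and effectors, 35 were in the table. None passed an adjusted p of 0.05 in the blocked fit, and the smallest adjusted p was 0.711 (limma). At an unadjusted p under 0.05, 2 were higher and 2 were lower, compared to 2.30% higher and 1.99% lower of all genes, and together these 4 were 11.4% of the 35. In the fit without the block, 11 of the 35 had an unadjusted p under 0.05 beside 17.5% of all genes, and 2 passed the adjusted threshold beside 0.957%.

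Tnf, the ligand of both TNF receptors, had the smallest p. Its level in sorts 1 to 5 was 281, 169, 192, 237 and 302 normalized counts in Ppef2+/+ libraries and 291, 316, 268, 370 and 320 in Ppef2-/- libraries. It was higher in Ppef2-/- cells in 5 of 5 sorts, by log2 ratios between 0.053 in sort 1 and 0.90 in sort 2, although the ranges overlapped. The fitted log2 change was 0.41 ± 0.10 (SE) with an unadjusted p of 0.000727 and an adjusted p of 0.711 in limma. The receptors Tnfrsf1a and Tnfrsf1b, measured in the same libraries, had log2 changes of −0.012 and −0.010.

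Bid, the protein that caspase-8 cleaves to carry the death signal to mitochondria, had 459, 425, 344, 358 and 400 normalized counts in Ppef2+/+ libraries and 384, 347, 298, 290 and 364 in Ppef2-/- libraries of sorts 1 to 5. It was lower in 5 of 5 sorts, by log2 ratios between −0.14 and −0.30, although the ranges of the genotypes overlapped. The fitted change was −0.24 ± 0.069 (SE). Rbck1, a subunit of the linear ubiquitin ligase that acts on the TNFR1 complex, was also lower in 5 of 5 sorts. It ranged from 887 to 921 normalized counts in Ppef2+/+ and from 789 to 831 in Ppef2-/- libraries, which did not overlap. Over the 9613 genes with reads, 0.531% had no overlap between genotypes. In limma the adjusted p of both genes was 0.995 in the blocked fit and 0.0182 without the block. It lay between 0.0182 and 1.00 for both over the alternatives run, and the call was made only without the block on the deposited values.

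Tnfaip3, which encodes the ubiquitin-editing enzyme A20 that restrains TNFR1 signalling, had values too high for reads to be calculated back. As deposited, with the sort means removed, it had 2490 ± 230 normalized counts in Ppef2+/+ and 2756 ± 230 in Ppef2-/- libraries (SD, n = 5). In sorts 1 to 5 the values were 2560, 2670, 2646, 2103 and 2470 in Ppef2+/+ libraries. They were 2686, 2576, 2600, 3143 and 2776 in Ppef2-/- libraries, with by far the largest difference in sort 4. Tnfaip3 was higher in Ppef2-/- cells in 3 of 5 sorts, with a fitted log2 change of 0.15 ± 0.069 (SE) and an unadjusted p of 0.0459 in limma. An exact permutation test within sorts gave p = 0.3125. The remaining 31 genes of the list had unadjusted p-values above 0.05. One of them, Map3k14, was lower in 5 of 5 sorts with a log2 change of −0.085 (unadjusted p = 0.161, limma). It was chosen after its values were seen. With Tnf, Bid and Rbck1, 4 of the 35 genes (11.4%) had the same sign in 5 of 5 sorts, beside 6.18% of all genes. For each of these 4 the exact permutation test gave p = 0.0625, the smallest it can give with 5 sorts. With all 5 differences of the same sign this value is fixed, so it adds nothing to the count.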

How the data were processed

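The authors aligned single-end reads to mm10 and counted them per RefSeq gene in Partek, normalized the counts with DESeq2 and set values under 1 to 1. The paper and the submitters' processing notes name different aligners (HISAT and TopHat2 2.0.3). Genes with a mean under 10 in both genotypes were left out by the authors. The deposited values are therefore a normalized count signal and not raw counts. All 10 columns were used, and 0 were left out. The genotype and the sort of each library came from the labels.

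The sort number pairs the libraries, since the labels give it as a sort of its own. With the sort means put back, the deviations from the genotype mean were compared between both libraries of each sort over 9613 genes, with r = 0.27, 0.089, 0.27, 0.29 and 0.0027 in sorts 1 to 5. Whole reads were calculated back with the pair of steps per sort that gave exactly 1 set of reads for 100% of 557 genes with a mean under 16, compared to 0% for the next best combination. Reads were not calculated for genes that reached 1000 in any library. With values of 1 sort taken from another gene, 0 of 950 control genes had exactly 1 set of reads.

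Genotypes were compared in R 4.3.3 with limma 3.58.1 (lmFit, eBayes with trend) on log2(normalized count + 1), two-sided, genotype and sort as terms, with Benjamini-Hochberg adjustment over 10767 genes. The paper's one-way model without the sort was an alternative. Others were pseudocounts of 0.1 and 10, a mean of at least 50, other scalings, no trend, each sort left out and voom on whole reads. Fits with the sort means put back were chosen after seeing the data. Ratios within sorts have exact Clopper-Pearson intervals at 95%, which cover counting error only. Scripts were tested on simulated data. The members, the lists and the tests were chosen with earlier results of these data known. The text names all 10 members, Ppef2, and up to 6 other pathway genes with the smallest unadjusted p under 0.05 in the blocked fit. Map3k14 was named outside this rule, after its values were seen. Coordinates are from GENCODE M21 (GRCm38). Both libraries of a sort came from separate pools of mice, and p-values measure the spread between these sorts.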

Additional observations from a re-analysis of the deposited data

Results flagged for a closer look

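In 30 groups of 5 values (the level of each of the 10 genes in either genotype and its log2 ratio within sorts), 2 held a value far from the others by Dixon's criterion, where chance gives about 1 in 20 groups, or 1.5. The Ppef2+/+ library of sort 2 had a Tradd level of 145.9 normalized counts, compared to 85.7 to 102.6 in the other 4 Ppef2+/+ libraries. The log2 ratio of Ripk1 in sort 2 was −0.2395, compared to −0.037 to 0.040 in the other 4 sorts.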

How the results depend on the processing

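No member passed an adjusted p of 0.05 under any of 15 alternatives, where the smallest adjusted p was 0.409 (Ripk3 without the replicate block), and 0 of 10 had an unadjusted p under 0.05 in each of them. The median log2 fold change of the members was −0.056 to 0.044 with a sort left out and −0.0099 to 0.0053 otherwise. Of 149 alternative log2 fold changes of single members, 132 had the sign given in the report and 17 the other, 11 of the latter with a sort left out, and the signs of these small changes are therefore not settled. Fas, with a mean under 50, had no value under that filter. With a sort left out, values ranged from −0.25 to 0.025 for Fas, −0.054 to 0.023 for Tnfrsf1a, −0.096 to 0.10 for Tnfrsf1b, −0.18 to −0.047 for Fadd, −0.096 to 0.13 for Tradd, −0.068 to 0.0020 for Ripk1, 0.060 to 0.16 for Ripk3, −0.093 to 0.075 for Cflar, 0.020 to 0.15 for Traf2 and −0.045 to 0.13 for Birc2. With the sort means put back, with and without the replicate block, Tnfrsf1b was at 0.0054 and Cflar at −0.00030, and by voom on whole reads Tradd was at −0.0076 and Cflar at −0.0066. Without sort 3, 1 member, Ripk3, had the same sign in all remaining sorts.

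The number of genes called over the whole table was 1 as reported, 103 without the replicate block, 0 without a trend, 2 by voom on whole reads with the block, 2 with the sort means put back and 1 to 4 with a sort left out (2 without sort 1 and 4 without sort 4). The 103 come from a fit that treats the sort means as still present, although they had been removed. Without the block but on levels that held the sort means, limma called 1 of the 9613 genes with reads. That is a smaller set than the 10767 genes in which the 103 were called. Without a trend, Ppef2 lost its call (adjusted p = 0.865) and limma had 539 genes at an unadjusted p under 0.05. Scalings moved the median of all genes by at most 0.0043 on the log2 scale. Fas and Fadd, with 32 to 157 reads per library, had the least precise ratios.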
